A study of Mus musculus with 2 samples.

Results

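The nuclear genes of oxidative phosphorylation were read out in CD45+ cells of B16 melanoma tumours. Rows of the gene table were taken by symbol: names that begin with Ndufa, Ndufb, Ndufc, Ndufs, Ndufv, Uqcr, Cox4 to Cox8 or Atp5, without the assembly factors named Ndufaf, without pseudogene rows and without Cox6a2. The rule found 80 of 31053 rows. They held 79 symbols, because Atp5o had a second, read-through entry on chromosome 16 that was at 0 UMIs in both libraries. By complex, 38 rows belonged to complex I, 8 to complex III, 17 to complex IV and 17 to complex V. Rows were assigned by symbol, so Ndufa4, now known as a subunit of complex IV, counts under complex I throughout. The rule used names and no measured value.

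Oxidative phosphorylation passes electrons from NADH and succinate along the complexes of the inner mitochondrial membrane to oxygen, and ATP synthase (complex V) uses the resulting proton gradient to make ATP. Most subunits of complexes I, III, IV and V are encoded in the nucleus and imported. A small core set, including the proton-pumping subunits of complex I, cytochrome b and the catalytic subunits of cytochrome c oxidase, is encoded by mitochondrial DNA, so each complex needs products of both genomes. In tumour immune cells the pathway is known for its differing use by macrophage states, by dividing T cells and by neutrophils, which rely mostly on glycolysis.

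Each genotype was 1 library of cells pooled from several 8 weeks old mice, all with the C57BL/6 background, both alleles of Mettl3 flanked by loxP sites, and a B16 tumour. The WT mice were Mettl3fl/fl Lyz2+/+ and the KO mice Mettl3fl/fl Lyz2cre/+, with Cre in place of 1 Lyz2 allele, which is active in macrophages, monocytes, granulocytes and some dendritic cells. Live CD45+ cells, negative for 7-AAD, were sorted and profiled with the 10x Chromium 3' v3 chemistry. METTL3 is the methyltransferase that writes N6-methyladenosine on mRNA, and the design asks what its loss in myeloid cells does in a tumour.

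The library labelled WT held 5895 barcodes with 45963969 UMIs and the library labelled KO 8446 barcodes with 54052317 UMIs. Of the 5405 and 7625 cells kept, 4249 and 6123 fell into 12 marker-gated classes, and 812 and 1020 passed no gate. The libraries shared 13 barcode sequences. In macrophage-gated cells Mettl3 was at 9.60 UMIs per 1000000 UMIs of the class in the library labelled WT and 10.7 in that labelled KO, so its count did not set the labels apart. The 3' chemistry counts a transcript near its end, so an internal deletion would not show, and which part was deleted is not given in the sources used here. Lyz2, the gene that carries Cre, was at 6117 and 2807 on the same scale. Levels below are given in this unit, counts per 1000000 (CPM), for the library labelled WT first and that labelled KO second. With 1 library per genotype there was no replicate and no test. Intervals are 95% intervals from the Poisson or, for ratios, the binomial distribution and cover counting error only. A difference between the libraries can be one of genotype, pool, sort or library, and these cannot be told apart.

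The promoters of the members are shown first, because the best known regulators of this gene set, NRF1, the ETS family factor GABP (also called NRF2) and YY1, act there. A RefSeq window from 250 bases before to 50 after the gene start was given for 66 of the members (assembly GRCm38.p6). Both strands were searched. The core of the NRF1 motif, GCATGCG, was in 10 windows (15.2% against 4.96% of the 17492 protein-coding genes with a window). The ETS motif CCGGAAGT was in 5 (7.58% against 5.69%) and the YY1 motif AAGATGGC in 10 (15.2% against 3.57%). At least 1 of the core, ETS and YY1 motifs was in 23 windows (34.8% against 13.2%). These are matches of letters and not sites of binding. Of the members with a match, 8 that the results below name are printed as examples over 30 bases, 5′ to 3′ on the strand of the gene, with the motif in capitals. The first 5 hold the NRF1 core, the next 2 the YY1 motif and the last the ETS motif. In the windows of Atp5f1 and Uqcrh the motif is read on the opposite strand, so its reverse complement stands in capitals.
Uqcrc1 (chr9:108936668-108936697, plus strand): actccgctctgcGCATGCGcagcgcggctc
Ndufa6 (chr15:82354356-82354385, minus strand): tccgcggtagaGCATGCGcattgcagagcc
Ndufa11 (chr17:56717693-56717722, plus strand): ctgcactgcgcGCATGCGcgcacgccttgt
Atp5g2 (chr15:102671069-102671098, minus strand): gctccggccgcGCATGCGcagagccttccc
Cox6a1 (chr5:115349100-115349129, minus strand): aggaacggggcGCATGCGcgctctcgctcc
Ndufs4 (chr13:114388045-114388074, minus strand): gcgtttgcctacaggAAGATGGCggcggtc
Atp5f1 (chr3:105959248-105959277, minus strand): atgtgcgagcgGCCATCTTgctcctgcccc
Uqcrh (chr4:116075063-116075092, minus strand): gagtatgccgcACTTCCGGccaggtcgccg

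Over all kept cells the members summed to 32199 and 32142 CPM, from 1348154 and 1519285 UMIs. The 13 protein genes of mitochondrial DNA summed to 13236 and 15120 CPM. Of the 80 rows, 77 had a UMI in each library. The 3 rows at 0 in both were Cox7b2, Cox8c and the second Atp5o entry. At 0 counts, a floor of 3 UMIs allows up to 0.0717 and 0.0635 CPM. A further 5 rows stayed under 10 CPM in both libraries: Cox4i2, Cox6b2, Cox8b, Ndufa4l2 and Atp5s.

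The highest single members over all kept cells were small subunits. Atp5e, the epsilon subunit of ATP synthase, was at 1734 and 1746 CPM. Cox8a and Cox7c, small subunits of cytochrome c oxidase, followed at 1431 and 1455 CPM and at 1343 and 1399 CPM. The catalytic and electron-carrying subunits were lower. In macrophage-gated cells the ATP synthase subunits Atp5b (beta, catalytic) and Atp5a1 (alpha) were at 473 and 462 CPM and at 426 and 425 CPM. Uqcrfs1, the Rieske iron-sulphur protein of complex III, was at 113 and 127 CPM, Ndufv1, which binds NADH, at 54.3 and 52.9 CPM, and Ndufs1, the largest iron-sulphur subunit of complex I, at 38.8 and 41.2 CPM. A 3' tag is counted once per molecule, so these levels need no correction for length, although genes differ in how well their ends are captured and mapped.

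By class, the members were highest in melanoma-gated cells and lowest in granulocyte-gated cells in both libraries. The gates rest on marker lists, and their thresholds were set after values had been seen. Melanoma-gated cells were present although the cells were sorted as CD45+, and they stand for tumour cells only as far as their markers do (14455 CPM of the melanoma list in the library labelled WT, against 73 CPM in macrophage-gated cells). In the library labelled WT the summed level was 55039 CPM in the 132 melanoma-gated cells, 30882 CPM in 1584 macrophage-gated cells and 15584 CPM in 608 granulocyte-gated cells. In the library labelled KO it was 55188 CPM in 226 melanoma-gated, 29896 CPM in 1992 macrophage-gated and 16178 CPM in 269 granulocyte-gated cells. The melanoma-gated level was 1.78 and 1.85 times that of macrophage-gated cells, and the macrophage-gated level 1.98 and 1.85 times that of granulocyte-gated cells.

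Between these ends lay CD8 T-gated cells at 29073 and 30342 CPM, type 2 dendritic-gated at 28700 and 27475, CD4 T-gated at 27513 and 27998, conventional type 1 dendritic-gated at 26928 and 30126, and monocyte-gated at 26568 and 25959 CPM. NK-gated cells (22347 and 22867), plasmacytoid dendritic-gated (21746 and 22757), mature dendritic-gated (21076 and 21922) and B-gated cells (16832 and 17540) were lower. The order of the type 2 dendritic-, CD4 T- and type 1 dendritic-gated cells changed between the libraries, and so did that of macrophage- and CD8 T-gated cells, so these neighbours did not separate by more than the libraries differed.

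**Figure D1:**
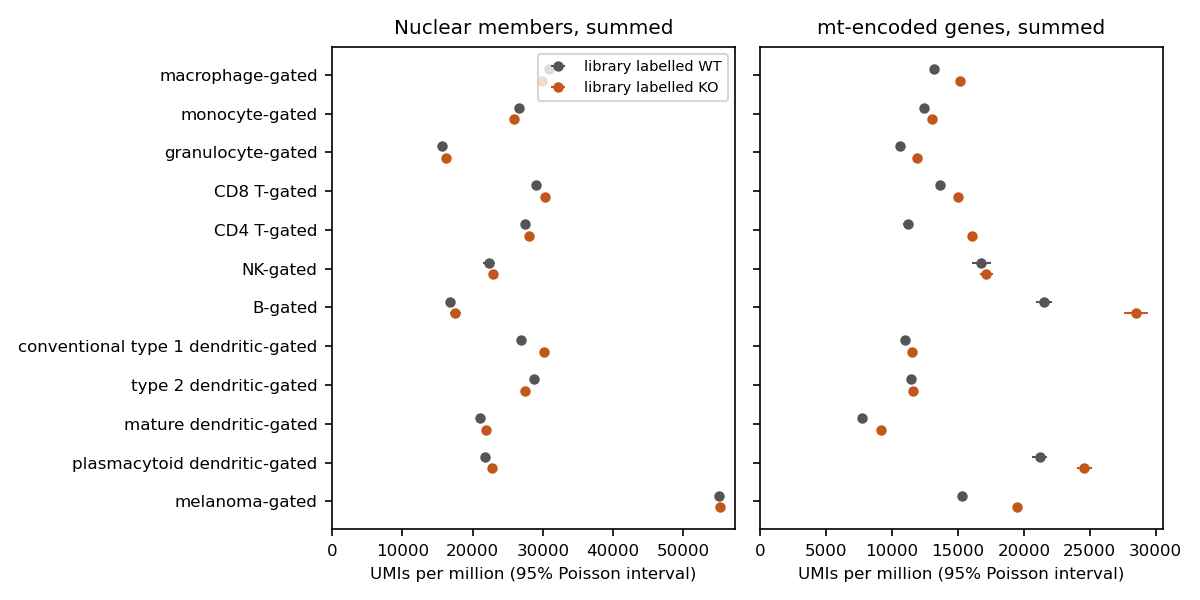
Summed CPM of the 80 nuclear members (left) and the 13 mt-encoded genes (right) in the 12 marker-gated classes; points are the library labelled WT (grey) and that labelled KO (orange), bars are 95% Poisson intervals. Melanoma-gated cells lie at 55039 and 55188 CPM for the members, far right of all others, while B-gated cells are lowest but 1 for the members and highest for the mt-encoded genes (21503 and 28513 CPM).

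The highest class was the same for most members and the lowest was not. Of the 71 members at 50 CPM or more in some class, melanoma-gated cells were highest for 63 in the library labelled WT and 65 in that labelled KO. Granulocyte-gated cells lay below macrophage-gated cells for 71 of 71 in both libraries, with a median ratio of 0.477 and 0.516. They were the lowest of the 12 classes for 31 and 38 members, B-gated cells for 25 and 25, and mature dendritic-gated cells for 12 and 2. Among the 11 classes without melanoma-gated cells, macrophage-gated cells were highest for 33 members in the library labelled WT and 19 in that labelled KO, where type 1 dendritic-gated cells were highest for as many. The exceptions to the melanoma-gated maximum in the library labelled WT were Cox4i1, Atp5k, Cox7a2l, Uqcrh, Ndufb7, Ndufs8, Ndufv1 and Ndufa6.

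Depth differed between classes as well. Melanoma-gated cells had a median of 47000 and 34561 UMIs, macrophage-gated 9348 and 6704, and granulocyte-gated 1387 and 1086. Within granulocyte-gated cells the members' level ran from 8008 and 9598 CPM in cells of 500 to 2000 UMIs to 25447 and 26341 CPM in the 16 and 7 cells of 10000 to 20000 UMIs. The middle granulocyte-gated cell held 8027 and 9734 CPM, below the sum over cells, which the few deep cells carry. Macrophage list genes were at 2473 CPM in the granulocyte-gated cells of the library labelled WT, and the part of free RNA or mixed droplets was not tested.

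The 5 members with the widest spread over classes in the library labelled WT were all highest in melanoma-gated cells. Ndufa5, an accessory subunit of complex I, was at 865 CPM there and at 55.4 CPM in mature dendritic-gated cells, 15.6 times apart. Ndufa4 reached 3405 CPM against 245 CPM in mature dendritic-gated cells, 13.9 times apart. Cox7b of complex IV (8.43 times), Uqcrq of complex III (7.93 times) and Ndufv3 of complex I (7.81 times) followed. In the library labelled KO the melanoma-gated level was 787 CPM for Ndufa5 and 3029 CPM for Ndufa4, again above all other classes.

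Complex I took a larger part of the members' UMIs in melanoma-gated cells than in any other class, 34.3% in the library labelled WT and 34.1% in that labelled KO, against 30.9% and 30.6% in macrophage-gated cells. This rested on Ndufa4, which alone took 6.19% and 5.49% of the members' UMIs in melanoma-gated and 2.26% and 2.11% in macrophage-gated cells. Without it complex I took 28.2% and 28.6% in melanoma-gated and 28.7% and 28.4% in macrophage-gated cells, and complex IV with it took 33.4% and 33.4% against 30.1% and 30.3%. Complex V took 25.3% of the members' UMIs in melanoma-gated and 30.2% in macrophage-gated cells labelled WT. In mature dendritic-gated cells complex IV took 31.4% and complex I 26.2%, the lowest share of complex I in that library. The c-ring subunit of ATP synthase is encoded by 3 genes whose mature proteins are the same. Atp5g2 gave the most UMIs of the 3 in every class, 43.0% of them in macrophage-gated and 61.5% in plasmacytoid dendritic-gated cells labelled WT. Atp5g1 gave 31.7% and Atp5g3 25.3% in macrophage-gated cells.

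Members that are tissue-restricted isoforms were at low levels, and their levels by class follow. Cox4i1, the common form of subunit 4 of cytochrome c oxidase, was at 973 and 994 CPM in macrophage-gated cells. Cox4i2, the form known from lung and induced at low oxygen, had 258 UMIs (14.3 CPM) in macrophage-gated cells labelled WT and 145 UMIs (8.44 CPM) in those labelled KO. Monocyte-gated cells had 12 and 70 UMIs (2.50 and 6.80 CPM) and granulocyte-gated cells 4 and 4 UMIs (2.82 and 7.80 CPM). No UMI of Cox4i2 fell in NK-, B-, dendritic- or melanoma-gated cells of either library. At 0 counts the floor of 3 UMIs allows up to 0.506 and 0.405 CPM in melanoma-gated cells, below the macrophage-gated levels, and up to 24.8 and 11.0 CPM in NK-gated cells, above those levels. In B-gated cells it allows up to 13.1 CPM in the library labelled WT, just below the macrophage-gated level, and 23.5 CPM in that labelled KO, above it. CD8 T-gated cells had 6 and 2 UMIs and CD4 T-gated cells 2 and 0.

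Cox4i2 was the member that differed most between the libraries in macrophage-gated cells among those at 10 CPM or more. The log2 ratio of KO over WT was -0.76 in all macrophage-gated cells. In the macrophage-gated cells with monocyte markers under 5 per 10000 UMIs it was -0.98 (178 and 71 UMIs, interval -1.39 to -0.57). In those with at least 20 per 10000 it was -0.039, from 20 and 38 UMIs and with an interval from -0.86 to 0.82. In monocyte-gated cells the library labelled KO was the higher. Cox4i2 lay below the 50 CPM minimum and is described apart from the counts over tested genes.

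Cox7a1, the heart and muscle form of subunit 7a, was at 24.9 and 28.0 CPM in macrophage-gated and 21.6 and 26.9 CPM in melanoma-gated cells, beside 720 and 705 CPM and 1646 and 1611 CPM of the common form Cox7a2. Cox7a2l, which takes part in supercomplex assembly, was at 146 and 139 CPM in macrophage-gated and 258 and 250 CPM in B-gated cells. Cox6b2, the testis form of subunit 6b, was highest in type 2 dendritic-gated cells at 20.7 and 21.2 CPM, but from 9 UMIs in each library, and had 49 and 78 UMIs (10.2 and 7.58 CPM) in monocyte-gated cells. The common form Cox6b1 was at 945 and 946 CPM in macrophage-gated cells. Cox6a1 was at 410 and 420 CPM there. Cox6a2, which the rule leaves out, was at 1875 and 1816 CPM in plasmacytoid dendritic-gated and 6.99 and 5.76 CPM in macrophage-gated cells.

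Cox8b, the muscle form of subunit 8, had 15 of 16 and 28 of 30 UMIs in melanoma-gated cells, at 2.53 and 3.78 CPM. The common form Cox8a was at 1394 and 1357 CPM in macrophage-gated cells. Ndufa4l2, an Ndufa4-like gene induced at low oxygen, was at 2.70 and 11.1 CPM in melanoma-gated cells. These came from 16 UMIs in 9 cells and 82 UMIs in 19 cells, with 30 of the 82 in 1 cell. Most of the gene lay outside the 12 gates in the library labelled WT (175 of 213 UMIs) but not in that labelled KO (36 of 139).

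**Figure D2:**
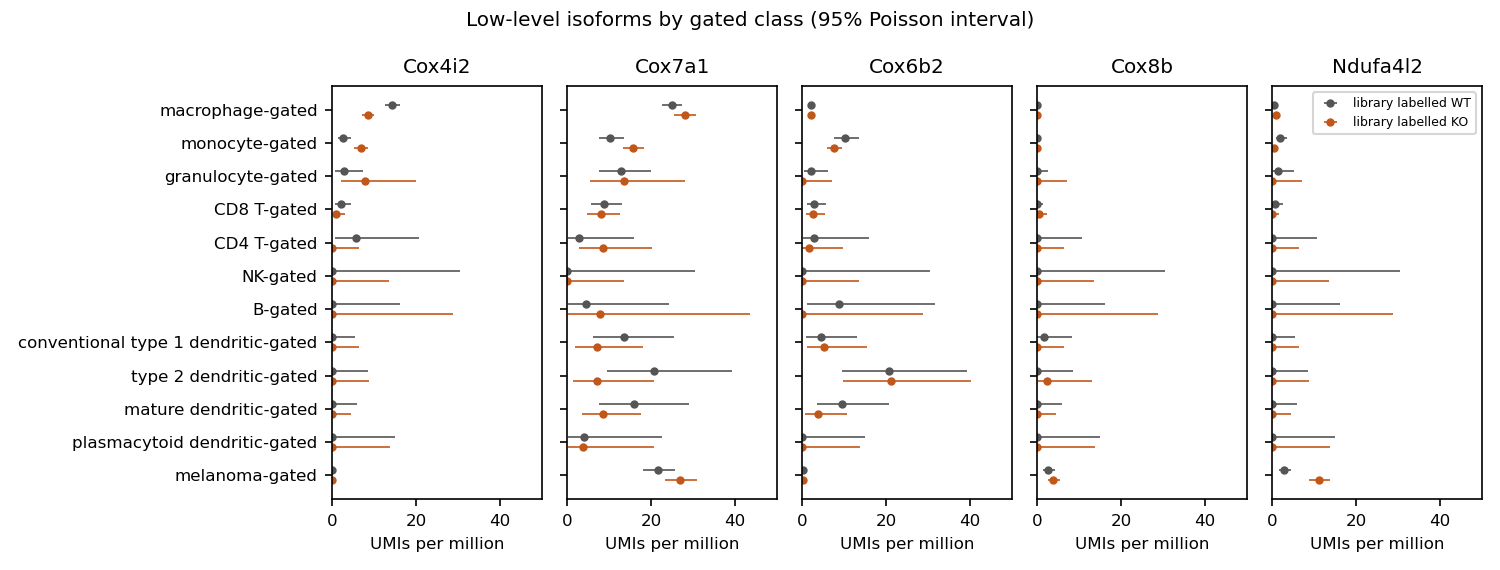
CPM of 5 low-level isoform genes in the 12 gated classes, in the library labelled WT (grey) and labelled KO (orange), with 95% Poisson intervals. Cox4i2 is seen in macrophage-gated (14.3 and 8.44 CPM) and monocyte-gated cells (2.50 and 6.80 CPM) and, from 4 UMIs in each library, in granulocyte-gated cells (2.82 and 7.80 CPM), Cox6b2 in type 2 dendritic- and monocyte-gated cells and Cox8b in melanoma-gated cells; the wide bars of NK- and B-gated cells reflect few UMIs.

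Between the libraries, the members' summed level in macrophage-gated cells was 30882 CPM (556606 UMIs, WT) and 29896 CPM (513914 UMIs, KO). The log2 ratio of KO over WT was -0.047, with a counting interval from -0.052 to -0.041. By complex it was -0.064 for complex I, -0.005 for complex III, -0.027 for complex IV and -0.064 for complex V. The mt-encoded genes went the other way, from 13175 to 15155 CPM, a log2 ratio of 0.20 (interval 0.19 to 0.21). The nuclear to mt-encoded ratio was 2.34 in the library labelled WT and 1.97 in that labelled KO.

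No nuclear member at 50 CPM or more reached a 1.2-fold difference in macrophage-gated cells. The count was 0 of 70 members tested in both directions, while 7.53% of the 2921 genes at 50 CPM or more were higher in the library labelled KO by that fold and 3.25% were lower. Of the 70 members 53 lay below 0 and 17 above, with a median log2 ratio of -0.07 against 0.001 over all genes tested and a range from -0.23 to 0.17, all on the log2(CPM + 1) scale. The cytosolic ribosomal protein genes, another set of abundant short transcripts, had a median of -0.08, with 73 of 86 below 0. The counting interval lay wholly below 0 for 36 members and wholly above 0 for 4, against 25.9% and 28.2% of all genes tested. In cells of 2000 to 10000 UMIs alone it lay below 0 for 5 and above 0 for 7 (13.3% and 14.8% of all).

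The members furthest below 0 in macrophage-gated cells came from complexes I, V and III by symbol, with Ndufa4 among them. Ndufv2, the iron-sulphur partner of Ndufv1, was at 101 CPM in the library labelled WT and 85.6 in that labelled KO (log2 ratio -0.24, interval -0.34 to -0.14). Ndufc2, an accessory subunit of complex I, was at 335 and 291 CPM, Atp5c1, the gamma shaft of ATP synthase, at 216 and 189 CPM, Uqcrc1, a core protein of complex III, at 152 and 135 CPM, and Ndufa4 at 698 and 631 CPM. All 5 were lower in the library labelled KO by less than 1.2-fold.

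Among the members furthest above 0 were Uqcrfs1 at 113 and 127 CPM (log2 ratio 0.17, interval 0.08 to 0.26), Uqcrq, a small complex III subunit, at 747 and 813 CPM, Ndufa1 at 361 and 377 CPM and Ndufs6 at 236 and 242 CPM. Complex III thus held both Uqcrc1, among the lowest, and Uqcrfs1 and Uqcrq, the highest. Cox5a of complex IV was at 727 and 673 CPM. Ndufv1, Atp5a1, Atp5b, Cox4i1 and Ndufs1 differed by 0.10 or less on the log2 scale.

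**Figure D3:**
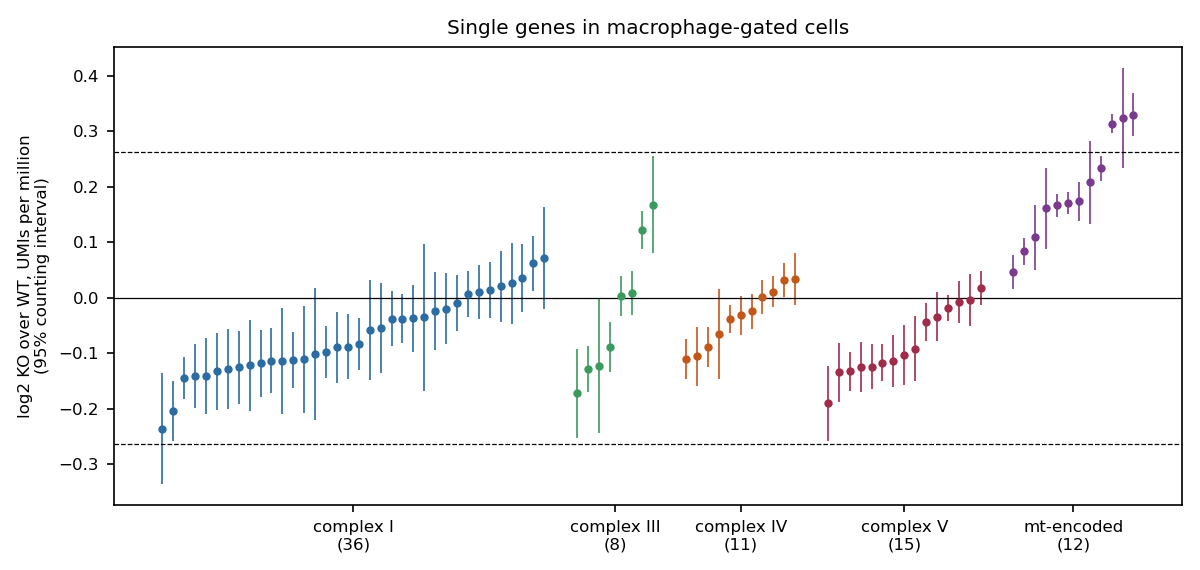
Log2 ratio of KO over WT of single genes in macrophage-gated cells, ordered within each complex, with 95% counting intervals; dashed lines mark 1.2-fold and numbers in brackets are genes at 50 CPM or more. All 70 nuclear members lie between the dashed lines, most below 0, while the 12 mt-encoded genes all lie above 0.

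The depth of the cells moved with this comparison. Macrophage-gated cells had a median of 9348 UMIs in the library labelled WT and 6704 in that labelled KO, and 16.0% and 7.33% of them had 20000 UMIs or more. In both libraries the members' level was higher in deeper cells, from 18369 and 19925 CPM in cells of 500 to 2000 UMIs to 32830 and 31556 CPM at 20000 UMIs or more. The mt-encoded level went from 25991 and 27322 CPM to 11668 and 13110 CPM over the same bins, in the opposite direction. Within bins, the members' log2 ratio was 0.12, 0.07, 0.005, 0.008 and -0.057 from shallow to deep. In cells of 2000 to 10000 UMIs alone the summed ratio was 0.0027 (interval -0.009 to 0.014), and 42 of the 70 members lay below 0 and 28 above. The mt-encoded ratio in that range was 0.053, and by bin it was 0.07, -0.015, 0.049, 0.20 and 0.17. The lower summed level in the library labelled KO was thus seen in the deepest cells and not in cells of the middle depth.

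In that middle range Ndufv2 was at 79.97 and 73.0 CPM and Atp5c1 at 186 and 170 CPM, both with intervals that include 0. Uqcrfs1 was at 101 and 99.2 CPM, without the difference seen over all macrophage-gated cells. Uqcrq was at 667 and 744 CPM there (log2 ratio 0.16, interval 0.08 to 0.23), close to its value over all cells.

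**Figure D4:**
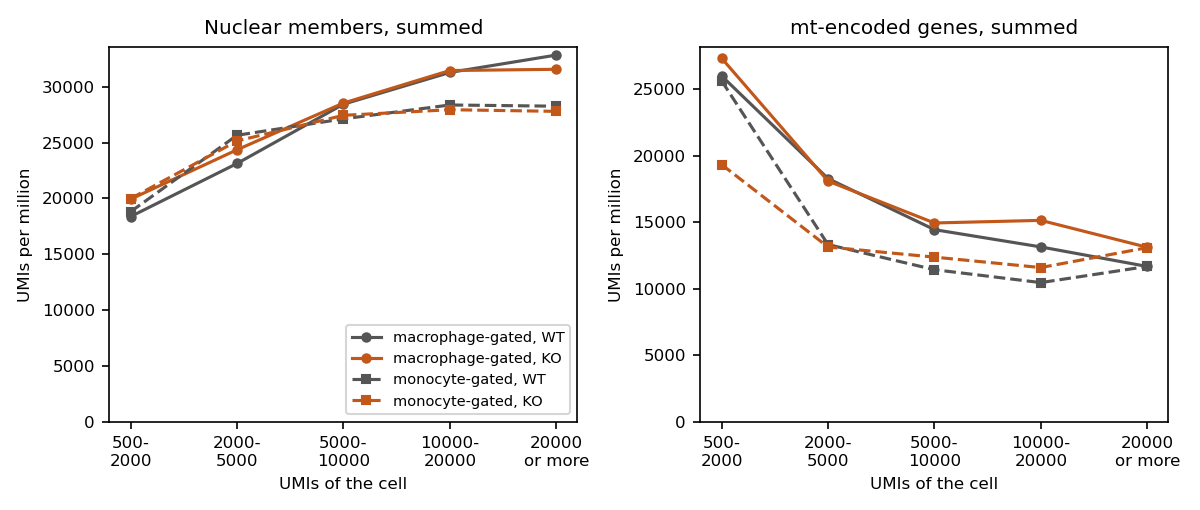
Summed CPM of the nuclear members (left) and the mt-encoded genes (right) in cells binned by their UMIs, for macrophage-gated (circles, solid) and monocyte-gated cells (squares, dashed) in the library labelled WT (grey) and labelled KO (orange). The members go from about 18369 CPM in the shallowest macrophage-gated cells labelled WT to 32830 CPM in the deepest, and the mt-encoded genes go down from 25991 to 11668 CPM.

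State within macrophage-gated cells moved the members less than depth did. Cycling cells, those with the cell cycle list at 5 per 10000 UMIs or more, were 23.6% and 19.98% of the class and held 32498 and 30955 CPM, against 30098 and 29441 CPM in the others. The cut between macrophage- and monocyte-gated cells runs through a continuum. Macrophage-gated cells with monocyte markers at 20 per 10000 or more were 17.2% of the class in the library labelled WT and 27.9% in that labelled KO, and held 27449 and 28028 CPM, a log2 ratio of 0.030 (interval 0.015 to 0.045). Monocyte list genes were at 772 and 1271 CPM in macrophage-gated cells. Their part in the lower summed level was not tested. In cells with monocyte markers under 5 per 10000 the log2 ratio was -0.037.

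In monocyte-gated cells the members were at 26568 CPM (964 cells labelled WT) and 25959 CPM (2508 cells labelled KO), a log2 ratio of -0.033 (interval -0.043 to -0.024). The sign turned with depth: from the shallowest to the deepest bin the ratio was 0.087, -0.029, 0.017, -0.022 and -0.024, with intervals above 0 in the first and the third. The median cell had 4166 and 3387 UMIs, and 11.0% and 17.7% of cells had under 2000. The part of depth in the summed ratio was not tested. Of 70 members tested 1 was lower by 1.2-fold and 0 were higher, where 6.52% of all 3053 genes tested were lower and 14.9% higher. The 1 member was Ndufb10, an accessory subunit of complex I, at 220 and 182 CPM (log2 ratio -0.27, interval -0.38 to -0.16). Atp5c1 at 241 and 203 CPM and Ndufa6 at 307 and 261 CPM followed. Atp5c1 was among the lowest in both gates, which share their cut but no cell. The highest were Ndufv3 at 237 and 269 CPM, Ndufa9 at 48.0 and 54.1 CPM and Ndufs4 at 104 and 115 CPM. Ndufa9 reached 50 CPM only in the library labelled KO, where it was higher.

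In granulocyte-gated cells the members were at 15584 and 16178 CPM, a log2 ratio of 0.054 (interval 0.017 to 0.090). Monocyte list genes were at 1097 and 1688 CPM and macrophage list genes at 2473 and 1862 CPM in these cells. In the 451 and 204 cells with monocyte markers under 5 per 10000 the members were at 12094 and 11693 CPM, a log2 ratio of -0.049 (interval -0.11 to 0.010), opposite in sign. By depth the ratio was 0.26, 0.60, -0.10, 0.050 and -0.26 from the shallowest to the deepest bin, the last with 5 and 1 cells. It was 0.28 with cells thinned to 1000 UMIs, 0.20 with doublets kept, 0.20 with equal weight of cells and 0.17 in cells of 2000 to 10000 UMIs. The median of all genes tested lay at 0.10 in this class, so relative to that median the members were 0.050 lower. Of 65 members tested 8 were higher and 9 lower by 1.2-fold, where 30.6% of 2900 genes were higher and 14.8% lower. Counts were few. Ndufv2 had 71 and 18 UMIs (50.1 and 35.1 CPM), and its interval ran from -1.35 to 0.25. It reached 50 CPM only in the library labelled WT, where it was higher. Ndufb4 was at 105 and 74.1 CPM and Atp5f1, the b subunit of the ATP synthase stalk, at 199 and 146 CPM (log2 ratio -0.44, interval -0.83 to -0.07). The highest were Ndufs8 at 59.3 and 87.7 CPM, Ndufa11 at 93.9 and 127 CPM and Ndufs6 at 104 and 136 CPM.

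CD8 T-gated cells, which do not make Lyz2-driven Cre, had members at 29073 and 30342 CPM, a log2 ratio of 0.062 (interval 0.047 to 0.076). Markers of other cells differed here too: the macrophage list was at 1598 and 738 CPM, the granulocyte list at 150 and 37.0 CPM and Lyz2 at 1458 and 255 CPM, and their part in the result was not tested. Of 71 members tested 4 were higher by 1.2-fold and 0 lower, where 13.9% of 2909 genes were higher and 10.3% lower. Ndufs1 had 100 and 134 UMIs, 35.2 and 56.4 CPM (log2 ratio 0.68, interval 0.30 to 1.07). Ndufa9 was at 47.5 and 64.4 CPM and Ndufs3 at 65.4 and 87.1 CPM, and Ndufab1, the mitochondrial acyl carrier protein, at 251 and 303 CPM. Ndufs1 and Ndufa9 reached 50 CPM only in the library labelled KO, so 2 of the 4 entered the count through the library where they were high. All 4 are complex I genes, as are 37 of the 71 members tested. The lowest were Ndufa12 at 126 and 112 CPM, Ndufs4 at 95.7 and 88.0 CPM and Uqcrh, the hinge protein of complex III, at 892 and 822 CPM. Atp5a1, Atp5b and Cox5a were 0.20, 0.20 and 0.18 higher on the log2 scale.

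Cycling cells were 30.2% and 28.4% of CD8 T-gated cells by number. By UMIs, which weight the sum, they were the larger part in both libraries, and more so in that labelled KO. Without cycling cells the members were at 26110 and 25971 CPM, a log2 ratio of -0.008 (interval -0.031 to 0.016), and 33 of 71 members lay above 0 in place of 55. The counting interval of single members lay above 0 for 4 and below 0 for 3 (9.25% and 7.49% of all genes tested). With cycling cells it did so for 23 and 1 (16.9% and 11.6%). Ndufs1 stayed higher in the library labelled KO without cycling cells, at 29.5 and 56.2 CPM from 40 and 55 UMIs. Cycling cells alone held members at 31772 and 33406 CPM (log2 ratio 0.072). By depth the ratio was 0.060, 0.070, 0.067, 0.086 and 0.081 from the shallowest to the deepest bin, with the interval reaching below 0 in the shallowest. Cells under 2000 UMIs, where the members were at 19443 and 20266 CPM, were 25.8% and 40.5% of the class. The summed ratio was thus above 0 in each depth bin and near 0 without cycling cells.

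Over the 12 classes the members were higher in the library labelled KO in 9 and lower in 3, the macrophage-, monocyte- and type 2 dendritic-gated cells. The interval lay above 0 in 5 classes and below 0 in those 3. In type 2 dendritic-gated cells (60 and 87) the monocyte list was at 1572 and 2983 CPM, the macrophage list at 1132 and 656 CPM and the cell cycle list at 207 and 77.6 CPM. The largest members' ratio of the 12 was in conventional type 1 dendritic-gated cells, 26928 and 30126 CPM from 52 and 47 cells (log2 ratio 0.16), of which 13.5% and 25.5% were cycling. There the macrophage list was at 1039 and 556 CPM and the granulocyte list at 244 and 17.5 CPM. The part of these markers was not tested. In melanoma-gated cells the log2 ratio was 0.004, and 47.7% of them were cycling in the library labelled WT and 25.7% in that labelled KO. By depth their ratio was -0.312, -0.035, -0.647, 0.253 and 0.014 from the shallowest to the deepest bin. The deepest held 102 and 161 of the cells, and the others few.

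In the other 8 classes the members' counts past 1.2-fold stood beside larger shares of all genes than in macrophage-gated cells. In type 1 dendritic-gated cells 23 of 69 members were higher and 2 lower (25.2% and 17.2% of all genes tested), and in type 2 dendritic-gated cells 3 of 70 were higher and 16 lower (26.7% and 24% of all). In mature dendritic-gated cells 11 of 67 were higher and 2 lower (23.9% and 14.9%), and in plasmacytoid dendritic-gated cells 14 of 70 were higher and 11 lower (30.9% and 26.1%). CD4 T-gated cells had 3 of 70 higher and 8 lower (24.6% and 24.3%), NK-gated cells 19 of 71 higher and 11 lower (33.7% and 31.4%) and B-gated cells 19 of 69 higher and 12 lower (37.4% and 28.6%). In melanoma-gated cells 2 of 71 were higher and 1 lower (11.2% and 16.5%). These were Cox7a2l at 137 and 187 CPM and Ndufv3 at 751 and 939 CPM, both higher, and Ndufs8 at 161 and 132 CPM, lower, named after their values were seen. Some of these counts came through the 50 CPM minimum in 1 library. Of the members counted higher, 4 in NK-, 3 in B-, 2 in mature dendritic-, 2 in plasmacytoid dendritic-, 1 in CD4 T- and 1 in type 1 dendritic-gated cells reached it only in the library labelled KO. Of those counted lower, 2 in plasmacytoid dendritic-, 1 in NK- and 1 in B-gated cells reached it only in that labelled WT.

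The mt-encoded genes were higher in the library labelled KO in 12 of 12 classes, with an interval above 0 in 10. The log2 ratio ran from 0.019 in type 2 dendritic-gated to 0.52 in CD4 T-gated cells. The median UMIs per cell were lower in the library labelled KO in 12 of 12 classes too, for example 47000 and 34561 in melanoma-gated and 6430 and 4030 in type 2 dendritic-gated cells. In CD8 T-gated cells the mt-encoded level was higher in shallow cells. It was 22599 and 23451 CPM at 500 to 2000 UMIs and 10548 and 11129 CPM at 20000 or more. Not all classes ran this way. Granulocyte-gated cells labelled WT were at 9808, 11125, 12679, 10742 and 8652 CPM from shallow to deep. Melanoma-gated cells were at 17440 and 14215 CPM in the shallowest bin and 15247 and 18989 CPM in the deepest. Within depth bins the mt-encoded ratio was above 0 in 5 of 5 for CD8 T-gated cells, in 4 of 5 for macrophage-gated cells and in 3 of 5 for monocyte- and granulocyte-gated cells, with values down to -0.41 and -0.72 in the shallowest monocyte-gated and the 5000 to 10000 UMI granulocyte-gated cells. In melanoma-gated cells it was -0.295, -0.599, 1.557, 0.550 and 0.317 from the shallowest to the deepest bin. All but the deepest of these bins held from 2 to 43 cells per library. The other classes were not split by depth, and the part of depth was not tested in them. The ratio was 0.41 in B-gated cells, from 21503 to 28513 CPM, and 0.34 in melanoma-gated cells, from 15328 to 19473 CPM. In melanoma-gated cells it was 0.23 without cycling cells and 0.24 in cycling cells alone, both below the value over the class. In the lymphocyte gates other than B it was 0.52 (CD4 T), 0.14 (CD8 T) and 0.032 (NK). The nuclear to mt-encoded ratio was lower in the library labelled KO in 10 of 12 classes. It was 3.59 and 2.83 in melanoma-gated cells and 0.783 and 0.615 in B-gated cells, the highest and the lowest class in both libraries. Over the 12 classes Pearson's r of the members' level with the mt-encoded level was -0.048 in the library labelled WT and -0.003 in that labelled KO. These 12 points share their library.

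**Figure D5:**
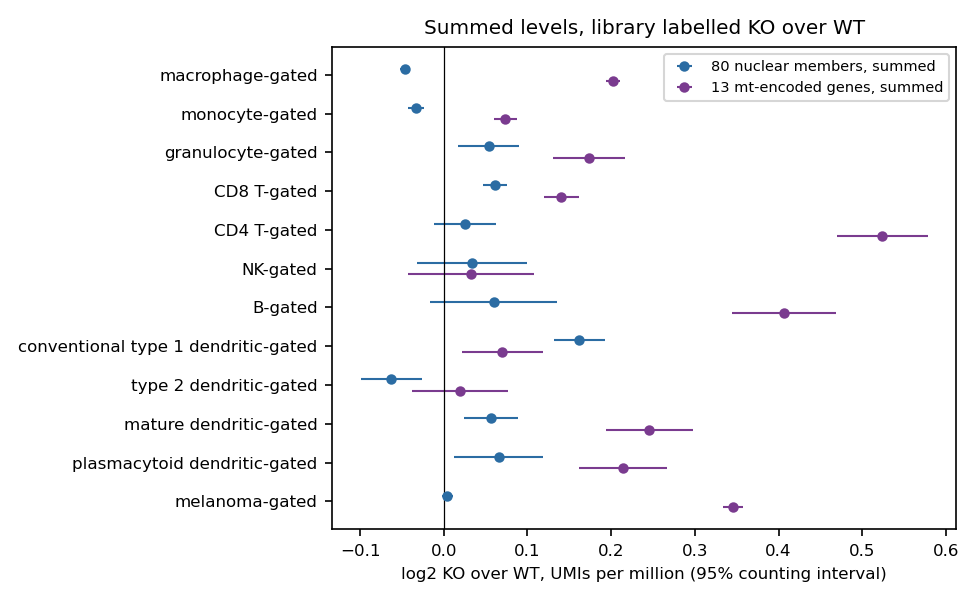
Log2 ratio of KO over WT of the summed nuclear members (blue) and the summed mt-encoded genes (purple) in the 12 gated classes, with 95% counting intervals. The mt-encoded points lie above 0 in 12 of 12 classes, up to 0.52 in CD4 T-gated cells, while the members stay between -0.063 and 0.16.

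By gene, 3 of the 12 mt-encoded genes tested in macrophage-gated cells were higher by 1.2-fold and 0 lower (7.53% and 3.25% of all genes tested). These were mt-Co1, the catalytic subunit of cytochrome c oxidase, at 3000 and 3729 CPM, mt-Nd4l at 561 and 705 CPM and mt-Atp8 at 100 and 126 CPM. mt-Co3 (1636 and 1923 CPM), mt-Co2 (2299 and 2587), mt-Atp6 (1920 and 2155), mt-Cytb (1465 and 1553), mt-Nd1 (698 and 787), mt-Nd2 (256 and 276), mt-Nd3 (151 and 174), mt-Nd4 (914 and 943) and mt-Nd5 (162 and 181) were higher by less. mt-Nd6, the single protein gene on the light strand, was at 12.1 and 13.4 CPM and was not tested. mt-Atp8 overlaps mt-Atp6 and mt-Nd4l overlaps mt-Nd4 on transcripts they share, so the split of their UMIs is uncertain.

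The same 3 genes led in melanoma-gated cells, where 6 of 12 were higher by 1.2-fold (11.2% of 3029 genes were). There mt-Co1 was at 2815 and 4186 CPM, mt-Nd4l at 671 and 980 CPM and mt-Atp8 at 151 and 228 CPM. In CD4 T-gated cells 11 of 12 were higher by that fold (24.6% of 3408 genes) and in B-gated cells 10 of 12 (37.4% of 3400 genes). With 86 and 136 CD4 T-gated and 125 and 82 B-gated cells, few cells stand behind these counts. Other markers differed there too. In CD4 T-gated cells Lyz2 was at 2146 and 525 CPM and the mature dendritic list at 17.2 and 149 CPM. In B-gated cells Lyz2 was at 660 and 47.0 CPM and the cell cycle list at 83.1 and 360 CPM. The part of these was not tested.

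Other mitochondrial gene lists were set beside the members in macrophage-gated cells. Of the complex II genes 4 of 4 lay below 0 and 0 passed 1.2-fold (median log2 ratio -0.13). Of 6 assembly factors tested, 8 carriers and inhibitors, 8 genes of the tricarboxylic acid cycle and 5 antioxidant genes 0 passed the fold, with medians of 0.007, -0.055, 0.020 and 0.066. Of 10 regulators only 1 reached 50 CPM, at a log2 ratio of 0.010. Of 48 mitochondrial ribosome genes tested 3 were higher (Mrpl43, Mrps34 and Mrps12) and 2 lower (Mrpl42 and Mrps36), near the 7.53% and 3.25% of all genes. Mrpl43 was at 75.4 and 114 CPM.

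In monocyte-gated cells 0 of 38 mitochondrial ribosome genes were higher and 4 lower (14.9% and 6.52% of all genes tested). Among carriers and inhibitors Higd1a, a small protein of the inner membrane induced at low oxygen, was at 247 and 366 CPM (log2 ratio 0.57, interval 0.47 to 0.66) and Atpif1, the inhibitor of ATP synthase, at 421 and 344 CPM. Sod2, the mitochondrial superoxide dismutase, was at 141 and 176 CPM. In granulocyte-gated cells Sod2 was at 234 and 95.5 CPM (log2 ratio -1.29, interval -1.75 to -0.85). In CD8 T-gated cells 6 of 46 mitochondrial ribosome genes were higher and 2 lower (13.9% and 10.3% of all genes tested), and Prdx5 and Gpx1, peroxidases, were lower at 269 and 179 CPM and at 432 and 325 CPM. Both were named after their values were seen. The macrophage list was lower in the library labelled KO in these cells too (1598 and 738 CPM), and its part was not tested.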

How the data were processed

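Live CD45+ cells of B16 tumours were sequenced as 1 10x Chromium 3' v3 library per genotype. The authors aligned reads to mm10 with Cell Ranger (4.0.0 per the file headers) and deposited whole-number UMI counts of 31053 genes in 14341 barcodes, not normalised, with a deposited table that gives the library of each barcode. Libraries were matched to genotypes by the names in the labels. Every barcode had at least 500 UMIs. Cells with under 200 genes (16 and 16) or over 10% mitochondrial UMIs (218 and 273) were left out, a filter the study names. Scrublet, as run within scanpy 1.11.5, gave a doublet score per cell in each library. The threshold that it sets itself called only 1 and 1 cells doublets, so the top scores at 0.8% per 1000 cells were removed (256 and 532).

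Cells were gated on marker UMIs per 10000 UMIs. Cells of several gates and plasma cells (85 and 96 in all), T cells with neither or both of the CD4 and CD8 markers (249 and 372) and fibroblast-gated cells (10 and 14) were set aside. UMIs were summed per class and library, as CPM. A gene counted as tested when it had at least 50 CPM in 1 of the libraries, and a difference of 1.2-fold on log2(CPM + 1) counted as higher or lower. There was no test. Intervals were computed with scipy 1.17.1 and run on simulated counts. Those counts were drawn from the Poisson model that the intervals assume. The run thus checks the computation and not whether the intervals hold for UMIs that cluster by cell. Tables were handled with pandas 2.3.3 and numpy 2.4.6 in Python 3.11.15 and figures drawn with matplotlib 3.10.9. The text names the members with the 5 top and 5 bottom log2 ratios of macrophage-gated cells, 3 and 3 in monocyte-, granulocyte- and CD8 T-gated cells, the 5 widest class ratios, isoform sets, core subunits and the mt-encoded genes. List genes named beside them were past 1.2-fold, and Cox4i2 states and Prdx5, Gpx1, Sod2 and Higd1a were chosen after their values were seen. Members, lists and thresholds were chosen with earlier results of these data known. Single members with processed pseudogenes may share reads with them, and gene annotation overlaps on the same strand at Ndufb2, Ndufa13, Cox4i1, Ndufb9, Atp5o and Ndufb8. Some genes that this rule or these lists name are not reported here.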

Additional observations from a re-analysis of the deposited data

Results flagged for a closer look

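The members' summed log2 ratio of KO over WT had opposite signs in gated classes of the same libraries. It was -0.047 in macrophage-gated and -0.033 in monocyte-gated cells, and 0.054 in granulocyte-gated and 0.062 in CD8 T-gated cells. With 1 library per genotype the difference between classes was not tested. The signs of the macrophage-, granulocyte- and CD8 T-gated values each turned under an alternative given with the processing. In subsets by monocyte markers the sign turned as well, to 0.030 in macrophage-gated cells at 20 per 10000 or more and to -0.049 in granulocyte-gated cells under 5 per 10000.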

How the results depend on the processing

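No paired analysis was possible because each genotype was 1 library and no replicate could be left out. Values are log2 ratios of KO over WT, in the order macrophage-, monocyte-, granulocyte- and CD8 T-gated where several are given. The members' sign turned 3 times: to 0.0027 in macrophage-gated cells of 2000 to 10000 UMIs, to -0.0077 in CD8 T-gated cells without cycling cells, and to -0.050 in granulocyte-gated cells set against the median of all genes. In the same range of UMIs the members were at -0.020 in monocyte- and 0.17 in granulocyte-gated cells, and the mt-encoded genes at 0.053, 0.051 and 0.10 in the first 3 classes. Without cycling cells the members were at -0.032 in macrophage- and 0.095 in granulocyte-gated cells, and the mt-encoded genes at 0.14 and 0.059 in the first 2. Against the median of all genes the members were at -0.054 in monocyte- and 0.015 in CD8 T-gated cells, and the mt-encoded genes at 0.053, 0.069 and 0.094 in the last 3. Thinned to 1000 UMIs the members were at -0.026, -0.048, 0.28 and 0.041, and the mt-encoded genes at 0.12, 0.054, 0.36 and 0.084. With equal weight of cells the members were at -0.036 in macrophage-, 0.20 in granulocyte- and 0.014 in CD8 T-gated cells, and the mt-encoded genes at 0.16, 8.1e-05 and 0.17 in macrophage-, monocyte- and CD8 T-gated cells. With doublets kept the members were at 0.20 in granulocyte-gated cells, and the mt-encoded genes at 0.21, 0.23 and 0.16 in macrophage-, granulocyte- and CD8 T-gated cells. With gate thresholds raised 2 times the members were at -0.041 in macrophage-gated cells and the mt-encoded genes at 0.24 and 0.035 in the first 2 classes. With mt-encoded, ribosomal protein and haemoglobin genes out of the total the members were at -0.055 and -0.069 and the mt-encoded genes at 0.19 and 0.038 in the first 2. With no limit on mitochondrial UMIs the mt-encoded genes were at 0.040 in monocyte- and 0.28 in granulocyte-gated cells. In macrophage-gated cells with monocyte markers under 5 per 10000, chosen after seeing the data, the members were at -0.037 and the mt-encoded genes at 0.26. The count of members past 1.2-fold in macrophage-gated cells was 1 with a 10 CPM minimum, 1 with equal weight of cells, 1 without cycling cells and 3 thinned, all lower, where 4.87%, 4.30%, 3.44% and 9.80% of all genes were lower, and 0 in the other 9 alternatives. The mt-encoded ratio was above 0 in the 4 classes under these alternatives, at 8.1e-05 in effect 0, but it was below 0 in some subsets by depth or marker level: -0.0053 in macrophage-gated cells with monocyte markers at 20 per 10000 or more, -0.015 in those of 2000 to 5000 UMIs, -0.41 in monocyte-gated cells of 500 to 2000 UMIs and -0.020 in those of 2000 to 5000, and in granulocyte-gated cells -0.22 with such monocyte markers, -0.72 at 5000 to 10000 and -0.55 at 20000 UMIs or more. The cause of these shifts was not tested.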
